A study of Homo sapiens with 12 samples.

Results

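The p53 pathway and target genes examined here are 35 genes named one by one: feedback regulators of p53, and genes known as its targets in growth arrest, DNA repair, metabolism and cell death. They were found by symbol among the 58174 genes of the mRNA-seq tables, and all 35 were present. CDKN1A, GDF15, the BCL2 family and the death receptors were left out of the list by its rule. The genes were measured in U87 and U118, which are established human glioblastoma cell lines (U-87 MG and U-118 MG in the labels), in 4 groups of 3 libraries, 12 libraries in all. The labels call one group of each line sensitive and the other resistant. The series' design text describes the resistant cells as induced in temozolomide (TMZ, a DNA-alkylating drug) at 50 μM, given continuously. No TMZ dose is given for the sensitive groups, so in both lines exposure to the drug and the resistant state cannot be told apart. The study's paper describes control cells and aggregates, and puts the aggregates after TMZ exposure of a culture depleted of CD133+ and CD15+ cells and grown with fetal bovine serum and BMP2. The aggregates arose from few surviving cells, and whether the 3 libraries of a group came from separate cultures is not given in the sources used here, so p-values measure only the spread between these libraries. Values are TPM, abundances corrected for transcript length, with a fixed sum per library. TPM keeps no read counts, and the depth behind each value is unknown.

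p53 is a transcription factor that is stabilised when DNA is damaged and that binds response elements near its target genes. The products of these targets arrest the cell cycle, repair DNA, adjust metabolism and redox balance, or lead to cell death. MDM2, itself a target, is a ubiquitin ligase that marks p53 for degradation and so closes a feedback loop. In glioblastoma the pathway is often disabled, for example through MDM2, MDM4 or the CDKN2A locus.

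Before the members are described, the libraries labelled U118 resistant need to be set out, since they expressed many of the genes that otherwise marked U87. There were 44 genes at 10 TPM or more in every U87 sensitive library and at 0.1 TPM or less in every U118 sensitive library. Of these, 40, 38 and 38 were at 1 TPM or more in the 3 U118 resistant libraries. Conversely, 110 genes were at 10 TPM or more in every U118 sensitive library and at 0.1 TPM or less in every U87 sensitive library, and 23, 18 and 16 of these were at 1 TPM or more in the U118 resistant libraries. The U87 resistant libraries kept all 44 genes of the first kind and had 2 to 4 of the 110 of the second. Across 16382 genes, Spearman's rho of the U118 resistant libraries was 0.895 to 0.909 with the U87 sensitive and 0.808 to 0.839 with the U118 sensitive libraries, as a description across genes. In the comparison labelled U118, the difference between cell lines and the resistant state therefore cannot be told apart, and the U87 levels are given beside each member called in it. The U87 and U118 values come from separate tables, and whether these were processed together is not given in the sources used here. Levels set across them are therefore side by side only and were not tested.

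**Figure D1:**
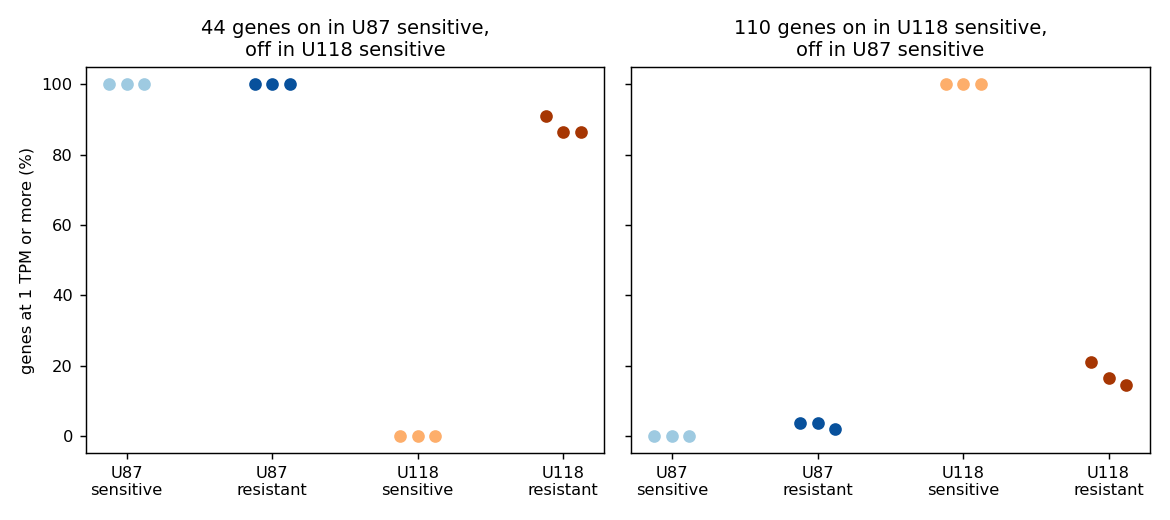
Percent of line-specific genes at 1 TPM or more (vertical axis) in each library, 3 points per group (horizontal axis), for 44 genes on in U87 sensitive and off in U118 sensitive libraries (left) and 110 genes with the reverse pattern (right). The sensitive groups are at 100% and 0% because they chose the genes, while the U118 resistant libraries were at 86.4% to 90.9% on the left and 14.5% to 20.9% on the right.

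Other features of the libraries touch the members. Mitochondrially encoded genes took 12.9% to 16.9% of TPM in U87 sensitive and 22.2% to 23.7% in U87 resistant libraries, and 7.42% to 19.7% in U118 sensitive libraries against 13.2%, 29.9% and 26.1% in U118 resistant replicates 1, 2 and 3. U118 resistant replicate 1 also had 15193 genes at 1 TPM against 13270 and 13545 in replicates 2 and 3, and its summed member TPM was 1569 against 1060 and 1101. In U87, sensitive replicate 2 stood apart for several members, MDM2 among them. Of 4 mesenchymal markers, VIM was at 4425 TPM or more in every library. In U87, VIM was at 4641 to 4726 TPM in sensitive and 4997 to 5910 TPM in resistant libraries. CD44 was at 311 to 376 TPM in U87 sensitive and 401 to 480 TPM in U87 resistant libraries, so neither gene overlapped in U87. In U118, CD44 was at 730 to 868 TPM in sensitive against 354 to 566 TPM in resistant libraries (-0.93, adjusted p = 0.0123 with limma). TNC was at 506 to 575 TPM in U87, and at 532 to 654 TPM in U118 sensitive against 153 to 190 TPM in U118 resistant libraries (-1.82, adjusted p = 0.000128). FN1 went from 68.2 to 77.9 TPM in U87 sensitive to 785 to 973 TPM in U87 resistant libraries (3.58, adjusted p = 8.59e-06 with limma), and from 2754 to 3879 TPM in U118 sensitive to 78.4 to 334 TPM in U118 resistant libraries (-4.65, adjusted p = 9.28e-05). Of 5 glial genes GFAP, S100B and AQP4 reached at most 0.693 TPM. SLC1A3 was at 5.21 to 8.78 TPM in U87, and at 1.79 to 3.07 TPM in U118 sensitive against 3.39 to 9.56 TPM in U118 resistant libraries (0.94, adjusted p = 0.0415). OLIG2 was at 1.45 to 4.45 TPM in U87, and at 0 to 0.0524 TPM in U118 sensitive against 0.57 to 1.05 TPM in U118 resistant libraries. Of 3 neural stem cell genes SOX2 and PROM1 reached at most 0.55 TPM, while NES was at 5.76 to 24.1 TPM and was higher in resistant libraries at the adjusted p alone, by 0.51 in U87 (adjusted p = 0.017) and 0.98 in U118 (adjusted p = 0.0324). The leukocyte genes PTPRC and CD14, the endothelial PECAM1, VWF and CDH5 and the epithelial EPCAM, CDH1 and KRT5 reached at most 1.12 TPM, while CD68, a lysosomal gene of macrophages and other cells, was at 285 to 338 TPM in U87 sensitive and 201 to 240 TPM in U87 resistant libraries (-0.48, adjusted p = 0.00836), and at 170 to 316 TPM in U118 sensitive and 296 to 379 TPM in U118 resistant libraries (0.60, adjusted p = 0.0843). The part of these markers in the results was not tested. Members whose call within a line changed without U87 sensitive replicate 2 or U118 resistant replicate 1 are given with that value.

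Promoters were read from RefSeq (GRCh38.p14) as windows of 300 bases, from 250 before to 50 after the start site, which matched 29 of the 35 members by symbol, in 42 windows. FBXO22, GADD45A, RRM2B, TP53INP1, PHLDA3 and RRAD had none. The p53 decamer half-site, a pattern of 10 bases that reads the same on both strands, was found in 5 of the 42 windows (11.9%) and in 6.63% of all 35116 windows. A pair of half-sites 0 to 13 bases apart, the spacing of a full response element, was found in the DDB2 window, against 0.0285% of all windows. The tetramer CATG, a common core of the half-site that also reads the same on both strands and can lie within it, was in 28.6% of member windows and 54.9% of all windows. The 5 sequences are shown because they are the only member windows with the decamer, which stands in capitals; each is written 5′ to 3′ on the strand of its gene.
PLK2: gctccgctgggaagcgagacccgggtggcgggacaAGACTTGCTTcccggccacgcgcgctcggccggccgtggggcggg
SESN1: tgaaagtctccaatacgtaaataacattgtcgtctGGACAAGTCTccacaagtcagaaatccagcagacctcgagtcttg
DDB2: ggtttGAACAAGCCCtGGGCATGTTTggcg
AEN: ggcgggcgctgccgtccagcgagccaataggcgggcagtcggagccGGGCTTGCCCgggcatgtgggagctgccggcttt
FDXR: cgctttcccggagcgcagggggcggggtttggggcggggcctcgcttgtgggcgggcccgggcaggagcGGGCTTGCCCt
They lie at chr5:58460174-58460253 (PLK2, minus strand), chr6:109008993-109009072 (SESN1, minus), chr11:47214974-47215003 (DDB2, plus), chr15:88621260-88621339 (AEN, plus) and chr17:74872995-74873074 (FDXR, minus). The decamer began 132 bases before the start site in PLK2, 49 before it in SESN1, 34 before it in AEN and 11 before it in FDXR. In DDB2 the half-sites were separated by 1 base and began at base 6 of the transcript. A match of letters is a description and not a measured binding site, and a window without one says only that the letters are not in these bases.

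In U87, BTG2 and PLK3 of the arrest genes, SESN2 and TP53INP1 of the metabolic genes and RRM2B of the repair genes were higher in the resistant cells, by 1.09 to 1.78 on the log2 scale, and no member was called lower. The comparison asked which members differ between the resistant and sensitive libraries of that line. Genes were tested on log2(TPM + 1) with limma. A call needed a p under 0.05 after Benjamini-Hochberg adjustment over all genes tested and a change of 1 or more, up or down, on that scale. Of the 35 members, 34 passed the filter of 1 TPM in 3 of the 6 libraries, and TP53I11 was listed at 0 in every U87 library. The called members numbered 5 higher and 0 lower, where 3.03% of the 13845 genes tested were called higher and 7.79% lower. At an adjusted p under 0.05 with no fold limit, 14 were higher (9.43% of all genes) and 3 lower (29.7%). At an unadjusted p under 0.05 with limma, 17 were higher (11.8% of all genes) and 3 lower (36.7%). The log2 fold change was positive in 27 of 34 (31.2% of all genes) and negative in 7 (68.8%). In bulk RNA a rise in every cell and a larger share of cells with high expression cannot be told apart. The members' median log2 fold change was 0.46 beside -0.24 over all genes tested. In 16 members every resistant library lay above every sensitive library (13.6% of all genes did), and in 3 every one lay below (39.8%). Under median-ratio scaling, which moved the median of all genes from -0.24 to -0.01, 12 members were called higher (4.79% of all genes), and 9 were when TPM was recomputed without mitochondrially encoded genes (3.95%). Both settings added FDXR, GADD45A, MDM2 and SESN1, and the first also EDA2R, PERP and TIGAR. Without sensitive replicate 2 the members called higher were 7 (3.48% of all genes), with GADD45A, MDM2 and ZMAT3 gained and PLK3 lost, and none was lower (6.8%).

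**Figure D2:**
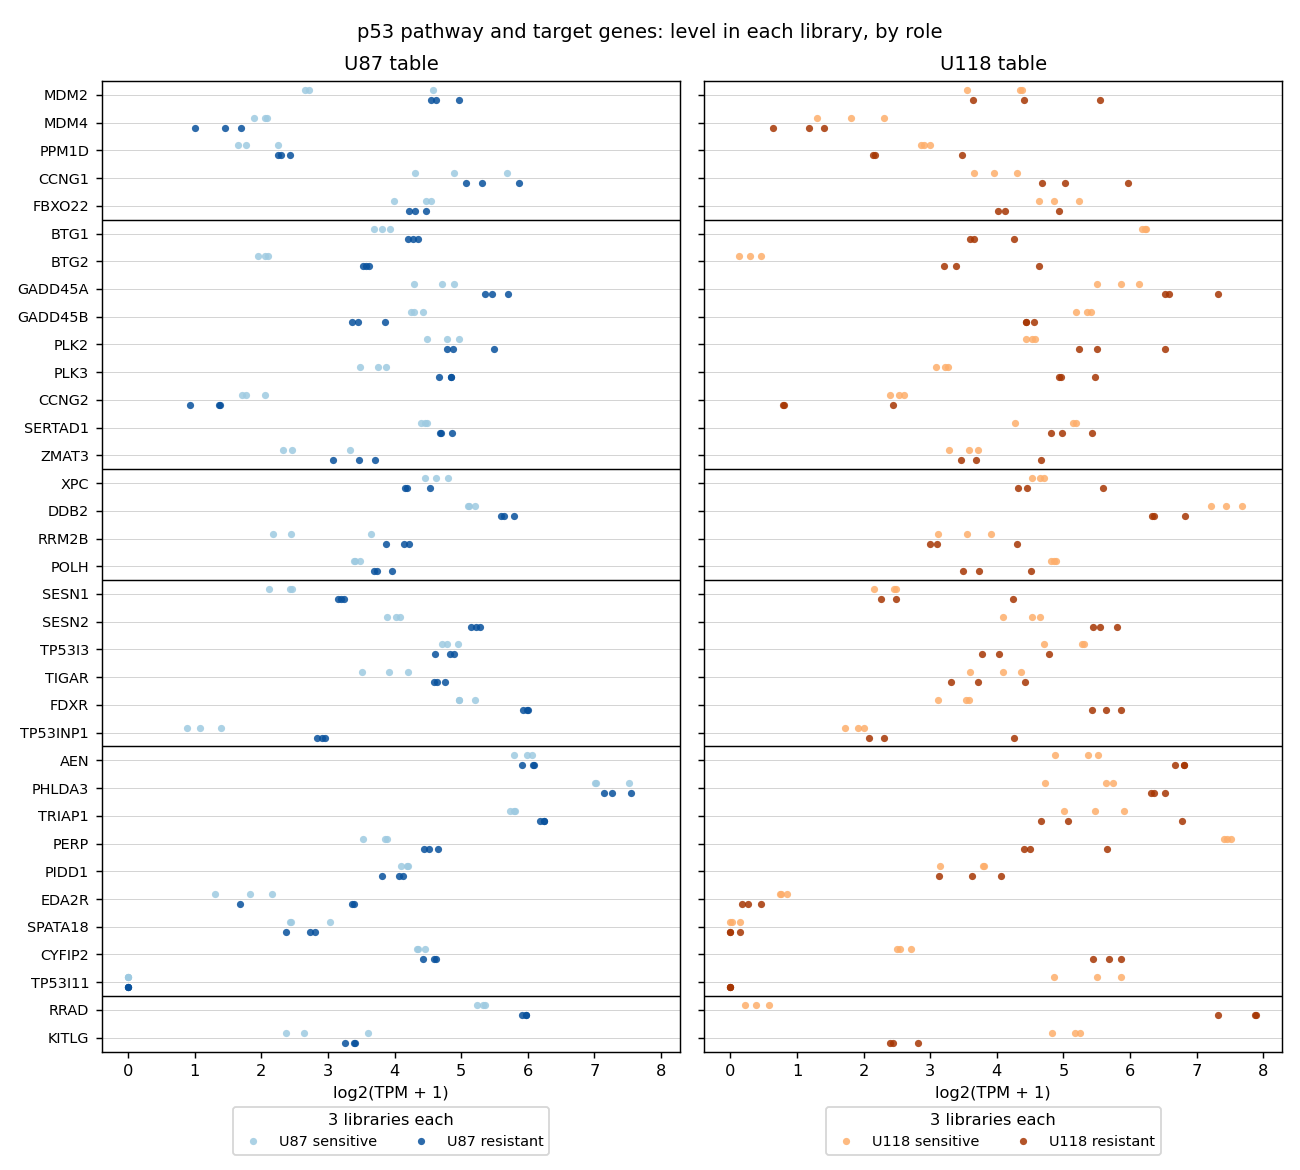
Level of each of the 35 members in each library as log2(TPM + 1) (horizontal axis), with U87 on the left and U118 on the right, genes in rows ordered by role and 3 points per group. In U87 the resistant points of BTG2, PLK3, SESN2 and TP53INP1 lie above all sensitive points, and in U118 one resistant library, replicate 1, is the rightmost for many members.

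Among the feedback regulators of U87 none of 5 was called. MDM2 (chromosome 12, 68808176 to 68850686), the ligase that degrades p53, was at 5.29, 22.8 and 5.54 TPM in the sensitive and 22.4, 23.6 and 30.2 TPM in the resistant libraries. Sensitive replicate 2 thus reached the resistant level while the other two sensitive libraries lay far below. The log2 fold change of MDM2 was 1.40 (standard error 0.50, adjusted p = 0.0641), and without sensitive replicate 2 it was 2.03 (adjusted p = 0.000358) and called. MDM4, its partner that blocks the activation domain of p53 without degrading it, was at 3.24, 3.13 and 2.72 TPM in sensitive and 1.01, 2.24 and 1.75 TPM in resistant libraries, with no overlap. Its change of -0.62 (standard error 0.20, adjusted p = 0.0475) was under the fold limit, and under median-ratio scaling it did not pass the adjusted p either (-0.44, adjusted p = 0.152). PPM1D, the phosphatase that switches off damage signalling, was at 0.43 (adjusted p = 0.121). The cyclin CCNG1 was at 0.45 (adjusted p = 0.36) and the F-box protein gene FBXO22 at -0.01 (adjusted p = 0.97).

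The arrest genes of U87 gave 2 calls among 9. BTG2 (chromosome 1, 203305491 to 203309602), an antiproliferative cofactor of mRNA deadenylation, was at 2.87, 3.13 and 3.30 TPM in sensitive and 11.2, 10.9 and 10.5 TPM in resistant libraries. The groups lay far apart and each was tight. This was a log2 fold change of 1.53 (standard error 0.13, adjusted p = 0.000266), called with each library left out in turn. PLK3 (chromosome 1, 44800225 to 44805990), a stress-responsive polo-like kinase, rose from 12.4, 10.1 and 13.6 TPM to 27.8, 27.7 and 24.3 TPM. Its log2 fold change was 1.09 (standard error 0.14, adjusted p = 0.00129) and fell just under the fold limit, at 0.98, without sensitive replicate 2.

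Other arrest genes passed the adjusted p but not the fold limit. GADD45A, a damage-inducible binder of PCNA and stress kinases, was at 18.5, 28.8 and 25.3 TPM in sensitive and 50.9, 42.9 and 40.1 TPM in resistant libraries, 0.87 on the log2 scale (standard error 0.18, adjusted p = 0.00849). GADD45A was called without sensitive replicate 2 (1.004, adjusted p = 0.00473), under median-ratio scaling (1.13) and without mitochondrially encoded genes (1.01). Its relative GADD45B was lower, at 20.5, 18 and 18.5 against 13.4, 9.31 and 9.98 TPM (-0.76, standard error 0.16, adjusted p = 0.00928). The pair thus differed in direction, with no overlap of the groups in either gene. BTG1, the close relative of BTG2, was at 0.47 (adjusted p = 0.0199), and the atypical cyclin CCNG2 at -0.62 (adjusted p = 0.0356). CCNG2 did not pass under median-ratio scaling (-0.45, adjusted p = 0.0798) or in any fit that left out a library (adjusted p up to 0.106). PLK2, SERTAD1 and the RNA-binding protein gene ZMAT3 did not pass, with 0.31, 0.30 and 0.71. ZMAT3 was called at 1.02 (adjusted p = 0.00932) without sensitive replicate 2.

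Of the 4 repair genes, RRM2B (chromosome 8, 102204502 to 102239118), the p53-inducible subunit of ribonucleotide reductase, was called in U87. It was at 3.54, 11.5 and 4.43 TPM in the sensitive and 17.6, 13.6 and 16.7 TPM in the resistant libraries, so that sensitive replicate 2 lay close to the resistant group. The log2 fold change of RRM2B was 1.32 (standard error 0.37, adjusted p = 0.0281). The call held in 1 of 6 fits that left out a library, that without sensitive replicate 2 (1.77, adjusted p = 0.000564), and was lost in the other fits, where the adjusted p ran up to 0.0915. With a replicate block, and with no filter, the call of RRM2B was lost as well. DDB2, which recognises ultraviolet lesions and whose window holds the paired half-sites above, was at 35.9, 33.4 and 33.8 TPM in sensitive and 54.3, 47.4 and 49.1 TPM in resistant libraries. This change of 0.53 (standard error 0.09, adjusted p = 0.00407) passed the adjusted p alone, with no overlap. XPC, the other lesion sensor, was at -0.33 (adjusted p = 0.126), and POLH, the polymerase that copies past lesions, at 0.37 (adjusted p = 0.0576).

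Of the metabolic targets of U87, 5 of 6 passed the adjusted p, as did 39.1% of all genes tested, and 2 the fold limit as well. SESN2 (chromosome 1, 28259527 to 28282491), a leucine sensor that restrains mTORC1, was at 15.2, 13.7 and 15.8 TPM in sensitive and 38.0, 34.2 and 36.2 TPM in resistant libraries. All resistant values lay above all sensitive values, with a log2 fold change of 1.22 (standard error 0.10, adjusted p = 0.000267). TP53INP1 (chromosome 8, 94925972 to 94949411), a stress protein of autophagy and cell death, had the largest change of the tested members in U87, from 0.845, 1.63 and 1.11 TPM to 6.52, 6.11 and 6.72 TPM. Its log2 fold change was 1.78 (standard error 0.17, adjusted p = 0.000436). Neither call was lost when any single library was left out.

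The related SESN1 was at 3.34, 4.37 and 4.53 TPM in sensitive and 8.13, 7.89 and 8.45 TPM in resistant libraries, a change of 0.86 (standard error 0.15, adjusted p = 0.00482). The half-site of SESN1 lies at a start site inside the annotated gene (chromosome 6, 108986437 to 109094819, minus strand). TPM per gene does not tell which start site was used. FDXR, the mitochondrial ferredoxin reductase, also with a half-site, was at 35.9, 30.3 and 30.3 against 62.8, 59.9 and 62.5 TPM (0.92, standard error 0.10, adjusted p = 0.000593). Both genes separated the groups fully while falling short of the fold limit. TIGAR, a phosphatase that diverts glycolysis, was at 0.79 (adjusted p = 0.0144), and TP53I3, a quinone reductase, at -0.04 (adjusted p = 0.801).

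The death genes gave no call among the 8 tested in U87. PERP, a junction protein with a role in apoptosis, was at 10.5, 13.7 and 13.4 TPM in sensitive and 20.6, 21.8 and 24.0 TPM in resistant libraries (0.78, standard error 0.14, adjusted p = 0.00515). TRIAP1, a mitochondrial lipid-transfer partner that limits apoptosis, was at 0.45 (adjusted p = 0.00339). These were the only ones past the adjusted p. EDA2R, a receptor of the tumour necrosis factor family, was at 1.46, 3.49 and 2.55 TPM in sensitive and 9.30, 2.21 and 9.53 TPM in resistant libraries, and resistant replicate 2 lay within the sensitive range. Its change of 1.05 (adjusted p = 0.133) became 1.62 and called (adjusted p = 0.0118) without that library. AEN, an apoptosis-enhancing nuclease, PHLDA3, an inhibitor of AKT, PIDD1, the scaffold of the caspase 2 complex, SPATA18, a mitochondrial quality gene, and CYFIP2, a subunit of the WAVE complex, lay between -0.16 and 0.17 and did not pass.

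Of the remaining members, RRAD, a small GTPase, was at 36.9, 40.2 and 39.2 TPM in sensitive and 61.9, 59.4 and 61.7 TPM in resistant U87 libraries (0.64, standard error 0.08, adjusted p = 0.0011), and KITLG, the ligand of the KIT receptor, was at 0.48 (adjusted p = 0.265).

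**Figure D3:**
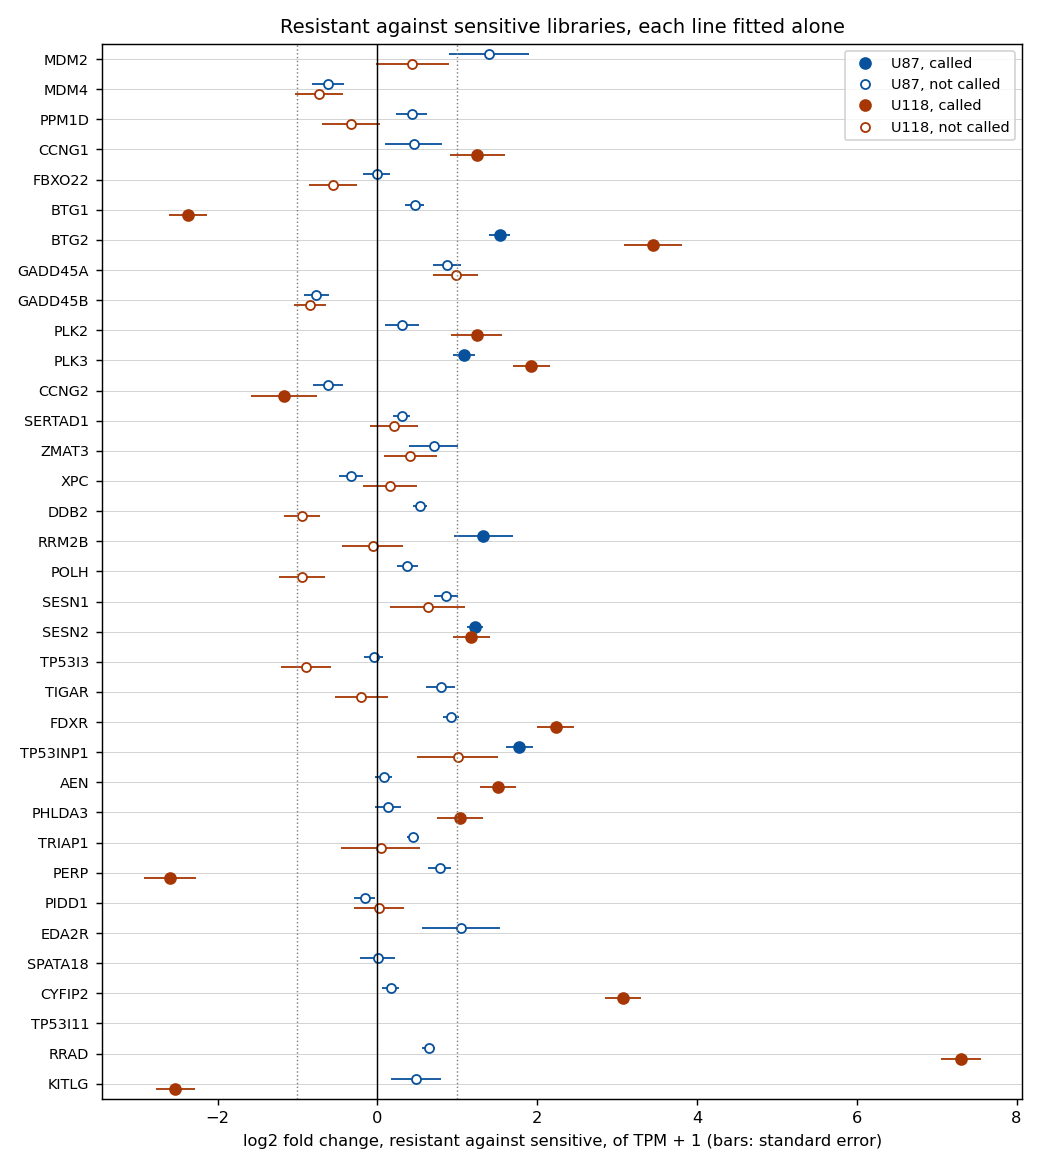
Log2 fold change of TPM + 1, resistant against sensitive (horizontal axis), for each member in U87 (blue) and U118 (brown), fitted separately with limma; bars are standard errors, filled points were called, and dotted lines mark a change of 1. TP53I11 is left out because it was listed at 0 in 9 libraries, and EDA2R and SPATA18 have no U118 point. BTG2, PLK3 and SESN2 are filled in both lines, while BTG1, PERP and KITLG are filled on the left in U118 and lie to the right of 0 in U87.

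In the libraries labelled U118, more members were called, and in both directions. The called members were CCNG1, BTG2, PLK2, PLK3, SESN2, FDXR, AEN, PHLDA3, CYFIP2 and RRAD, higher, and BTG1, CCNG2, PERP, TP53I11 and KITLG, lower. These are 10 higher and 5 lower of 33 tested, where 8.64% of 15527 genes were called higher and 26.6% lower. EDA2R and SPATA18 were under the filter. BTG2 and RRAD passed it only through the resistant libraries and TP53I11 only through the sensitive ones, which favours a call (89.5% and 80.6% of all such genes were called), and without these 3 genes 8 were higher and 4 lower. At an adjusted p under 0.05 with no fold limit, 11 were higher (12.2% of all genes) and 9 lower (39.1%). At an unadjusted p under 0.05 with limma, 11 were higher (13.7%) and 10 lower (44.4%). The log2 fold change was positive in 19 of 33 (28.7% of all genes) and negative in 14 (71.3%). The members' median log2 fold change was 0.16 beside -0.52 over all genes tested. In 12 members every resistant library lay above every sensitive one (15.7% of all genes) and in 7 below (42.9%). Without resistant replicate 1 there were 7 higher (8.33% of all genes) and 8 lower (36.3%), with a median of -0.20 beside -0.70 over all genes. Median-ratio scaling, which moved the median of all genes from -0.52 to -0.02, gave 13 higher (15.2% of all genes), with GADD45A, SESN1 and TP53INP1 gained, and 4 lower (12.9%), with CCNG2 lost.

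The levels of these called members were set beside those of U87. On the log2 scale, 14 of the 15 members called in U118 were nearer in the U118 resistant libraries to the U87 sensitive mean than to the U118 sensitive mean, and SESN2 was the exception. The same held for 82.0% of all genes called higher in U118 and 95% of all genes called lower. Of the 18 members tested and not called, 5 were nearer to U87 sensitive, as were 53.5% of all genes tested and not called. EDA2R and SPATA18, under the filter, were nearer to the U118 sensitive mean. SPATA18 was at 4.15 to 7.13 TPM in all 6 U87 libraries and at 0.109 TPM or less in all 6 U118 libraries, and EDA2R was at 1.46 to 9.53 TPM in U87, 0.681 to 0.803 TPM in U118 sensitive and 0.13 to 0.373 TPM in U118 resistant libraries.

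**Figure D4:**
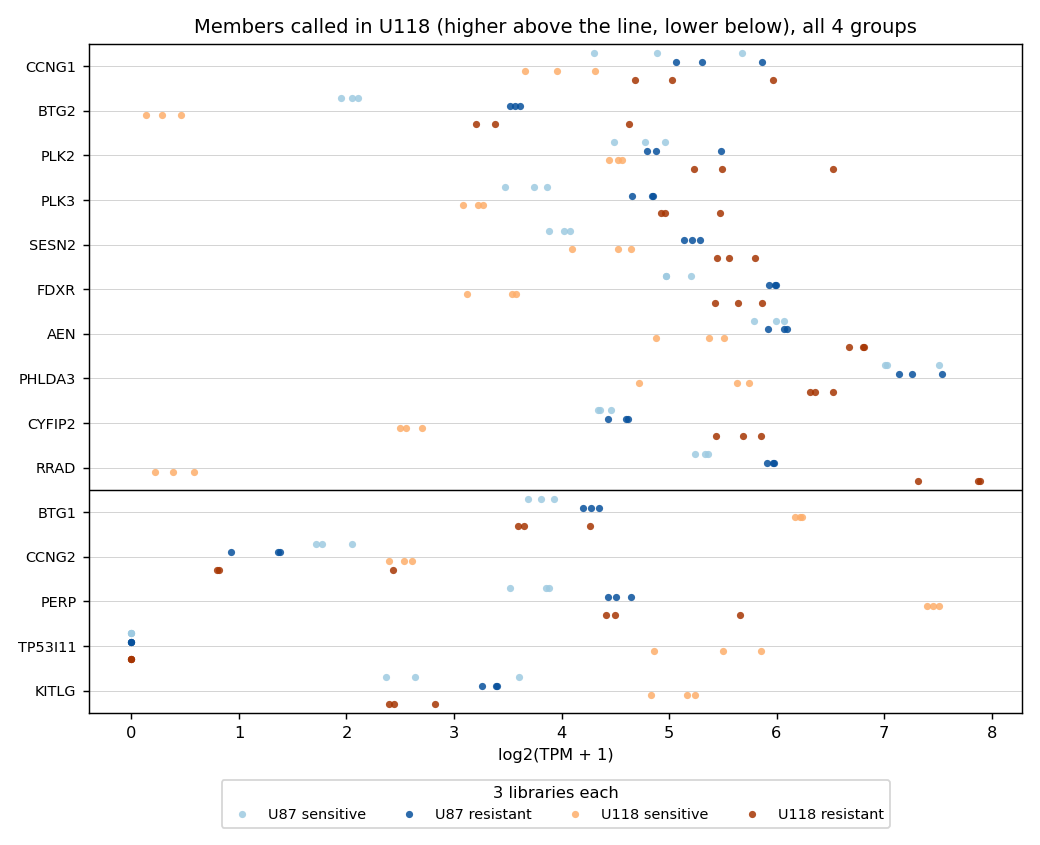
Log2(TPM + 1) (horizontal axis) of the 15 members called in U118 in every library of all 4 groups, 3 points per group, with the 10 called higher above the line and the 5 called lower below it. For BTG2, RRAD, CYFIP2, FDXR, BTG1, PERP, TP53I11 and KITLG the U118 sensitive points stand away from the other 3 groups.

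The arrest genes held 3 of the higher calls in U118. BTG2 was at 0.221, 0.0949 and 0.379 TPM in sensitive and 23.8, 8.20 and 9.45 TPM in resistant libraries, beside 2.87 to 3.30 TPM in U87 sensitive and 10.5 to 11.2 TPM in U87 resistant libraries. Its log2 fold change was 3.44, with no p given since it passed the filter only through the libraries where it was high. PLK3 was at 8.66, 8.35 and 7.48 TPM in sensitive and 43.3, 29.4 and 30.3 TPM in resistant libraries, a change of 1.93 (standard error 0.24, adjusted p = 0.000204). For PLK3 the sensitive libraries of both lines lay between 7.48 and 13.6 TPM, and the resistant libraries of both lines lay above them at 24.3 TPM or more. PLK2 (chromosome 5, 58453982 to 58460260), a polo-like kinase with a half-site in its promoter, was at 22.0, 22.7 and 20.7 TPM in sensitive and 91.1, 36.6 and 44.2 TPM in resistant libraries, beside 21.4 to 30.1 TPM in U87 sensitive libraries. Its change of 1.24 (standard error 0.32, adjusted p = 0.0117) was 0.86 and not called without resistant replicate 1, the highest of the resistant libraries. Without sensitive replicate 3 it was 1.21 (adjusted p = 0.0546).

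The arrest genes BTG1 and CCNG2 were called lower. BTG1 (chromosome 12, 92140278 to 92145897) was at 74.3, 73.5 and 71.1 TPM in U118 sensitive and 18.2, 11.1 and 11.6 TPM in U118 resistant libraries, beside 11.9 to 14.2 TPM in U87 sensitive libraries. Its change was -2.37 (standard error 0.24, adjusted p = 5.98e-05). CCNG2 was at 5.12, 4.28 and 4.80 TPM in sensitive and 4.41, 0.755 and 0.734 TPM in resistant libraries, so that replicate 1 lay within the sensitive range. The U87 sensitive libraries were at 2.28 to 3.14 TPM of CCNG2. The call of CCNG2 at -1.17 (adjusted p = 0.0399) held in 1 of 6 fits that left out a library, that without resistant replicate 1 (-1.71, adjusted p = 0.000121). GADD45A was at 69.0, 57.2 and 44.5 against 159, 90.6 and 95.3 TPM, a change of 0.98 (adjusted p = 0.0169) just under the fold limit, which passed it in 3 of 6 fits that left out a library. GADD45B was at 41.8, 40.1 and 35.3 against 22.6, 20.8 and 20.6 TPM (-0.84, adjusted p = 0.00751). The groups did not overlap in either gene. Under median-ratio scaling GADD45A was called at 1.53, while GADD45B was at -0.30 and did not pass (adjusted p = 0.237). SERTAD1 and ZMAT3 did not pass, with 0.21 and 0.41.

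Among the feedback regulators, CCNG1 (chromosome 5, 163437569 to 163446151) was called higher in U118, at 18.8, 11.7 and 14.6 TPM in sensitive and 61.5, 24.7 and 31.7 TPM in resistant libraries, beside 18.8 to 50.3 TPM in U87 sensitive libraries. The change of 1.25 (standard error 0.34, adjusted p = 0.0149) was 0.88 without resistant replicate 1, and the call was also lost without sensitive replicate 2 (adjusted p = 0.0685) or sensitive replicate 3 (adjusted p = 0.0625). MDM2 was at 19.4, 10.7 and 19.9 TPM in sensitive and 45.7, 20.2 and 11.4 TPM in resistant libraries. The groups of MDM2 overlapped, and the change of 0.43 (standard error 0.46, adjusted p = 0.445) was -0.07 without resistant replicate 1. MDM4 was at 2.51, 1.46 and 3.96 TPM against 1.26, 0.566 and 1.64 TPM (-0.73, adjusted p = 0.0692). PPM1D at -0.33 and FBXO22 at -0.56 did not pass.

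No repair gene was called in U118. DDB2 was at 205, 147 and 173 TPM in sensitive and 112, 80.9 and 79.7 TPM in resistant libraries, beside 33.4 to 35.9 TPM in U87 sensitive libraries, and its change of -0.94 (standard error 0.23, adjusted p = 0.0083) was under the fold limit. POLH was at 27.1, 28.1 and 28.5 against 21.9, 10.2 and 12.2 TPM, beside 9.44 to 10.1 TPM in U87 sensitive libraries (-0.94, adjusted p = 0.0225). Without resistant replicate 1 both were called lower, DDB2 at -1.10 and POLH at -1.24. RRM2B, at -0.06 (adjusted p = 0.907), and XPC, at 0.16 (adjusted p = 0.713), overlapped between the groups.

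SESN2 and FDXR were the called metabolic genes of U118. SESN2 was at 24.1, 22.0 and 16.1 TPM in sensitive and 54.6, 42.6 and 46.0 TPM in resistant libraries, a change of 1.17 (standard error 0.23, adjusted p = 0.00291). The U87 sensitive libraries, at 13.7 to 15.8 TPM, lay below both U118 groups. FDXR (chromosome 17, 74862497 to 74873031) was at 10.9, 10.6 and 7.68 TPM in sensitive and 57.1, 48.8 and 42.0 TPM in resistant libraries, beside 30.3 to 35.9 TPM in U87 sensitive libraries (2.23, standard error 0.24, adjusted p = 8.1e-05). TP53INP1 was at 3.02, 2.30 and 2.77 TPM in sensitive and 18.2, 3.25 and 3.96 TPM in resistant libraries. Its change of 1.01 (adjusted p = 0.124) came down to 0.32 without replicate 1, although all 3 resistant values were above the sensitive ones. SESN1, at 4.63, 3.45 and 4.47 against 17.9, 3.78 and 4.59 TPM, was at 0.63 (adjusted p = 0.286), and at 0.0045 without replicate 1. TP53I3 was at 37.8, 38.6 and 25.0 TPM in sensitive and 26.6, 15.3 and 12.8 TPM in resistant libraries, with overlap, and its change of -0.90 (adjusted p = 0.037) was under the fold limit. TP53I3 was called lower without resistant replicate 1 (-1.19, adjusted p = 0.00293) and without sensitive replicate 3 (-1.09, adjusted p = 0.0426), and did not pass under median-ratio scaling (-0.36, adjusted p = 0.201). TIGAR was at -0.20 (adjusted p = 0.631).

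The death genes moved in both directions. AEN (chromosome 15, 88621296 to 88632282) was at 44.7, 40.4 and 28.3 TPM in U118 sensitive and 111, 101 and 111 TPM in U118 resistant libraries, above the 54.5 to 67.5 TPM of all U87 libraries. Its log2 fold change was 1.51 (standard error 0.23, adjusted p = 0.000679). CYFIP2 (chromosome 5, 157266079 to 157395595) was at 4.87, 5.52 and 4.65 TPM in U118 sensitive and 57.0, 42.4 and 50.4 TPM in resistant libraries, also above the 19.2 to 23.6 TPM of all U87 libraries (3.08, standard error 0.22, adjusted p = 8.03e-06). These levels were not those of either U87 group. PHLDA3 (chromosome 1, 201464383 to 201469237) was at 52.5, 48.6 and 25.3 against 91.0, 78.2 and 81.2 TPM, below the 128 to 185 TPM of all U87 libraries, a change of 1.03 (standard error 0.29, adjusted p = 0.0153). The call of PHLDA3 was lost without resistant replicate 1 (0.97) and without sensitive replicate 3 (0.71).

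Of the death genes called lower, PERP (chromosome 6, 138088505 to 138107511) was at 181, 168 and 175 TPM in U118 sensitive and 49.6, 20.3 and 21.6 TPM in resistant libraries, beside 10.5 to 13.7 TPM in U87 sensitive and 20.6 to 24.0 TPM in U87 resistant libraries (-2.60, standard error 0.32, adjusted p = 0.000231). TP53I11 (chromosome 11, 44885903 to 44951306), a p53-inducible membrane protein gene, was at 28.1, 57.1 and 44.4 TPM in U118 sensitive libraries and was listed at 0 in the other 9 libraries, U118 resistant included. It passed the filter only through the libraries where it was high, so no p is given. No fold change is given against a group at 0. TP53I11 is itself one of the 110 line genes described above. TRIAP1 at 0.04 and PIDD1 at 0.02 overlapped between the groups.

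The largest rise among the members was that of RRAD (chromosome 16, 66921679 to 66925644), from 0.162, 0.493 and 0.307 TPM in U118 sensitive to 159, 237 and 234 TPM in U118 resistant libraries, 7.30 on the log2 scale, with no p given for the reason stated for BTG2. It was at 36.9 to 61.9 TPM in all U87 libraries, so the U118 resistant level exceeded that of both U87 groups. KITLG (chromosome 12, 88492793 to 88580851) was at 34.9, 27.5 and 36.9 TPM in U118 sensitive and 6.06, 4.44 and 4.27 TPM in resistant libraries, beside 4.15 to 11.2 TPM in U87 sensitive libraries (-2.53, standard error 0.24, adjusted p = 4.25e-05).

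Set against each other, the lines shared 3 calls, BTG2, PLK3 and SESN2, all higher (2 without BTG2, which passed the U118 filter only through its resistant libraries), and no member was called lower in both or higher in one and lower in the other. Of the 13217 genes tested in both lines, 1.01% had a higher call in each, 2.28% a lower call in each and 1.66% a higher call in one and a lower call in the other. Of the 32 members tested in both lines, 17 were positive in both (11.4% of all genes) and 5 negative in both (50.2%). At an adjusted p under 0.05 alone, BTG2, FDXR, GADD45A, PLK3, RRAD and SESN2 were positive in both (2.62% of all genes), and CCNG2 and GADD45B negative in both (10.1%). BTG2 and RRAD count here with the same limit. The difference of the resistant effect between the lines was tested as an interaction over the 12 libraries. Of 35 members 5 were more positive in U118, where 12% of 16382 genes were, and 7 more negative, where 18.5% were, so both counts lie near those of all genes. The 7 include TP53I11, which passed the filter of this test only through the U118 sensitive libraries, where it was high. BTG2 differed by 1.91 (adjusted p = 0.00377), so the shared call had unequal size on this scale, from a lower start in U118. PLK3 at 0.84 (adjusted p = 0.0227) was under the fold limit, and SESN2 differed by -0.05 (standard error 0.24, adjusted p = 0.897), with a 95% interval from -0.57 to 0.48.

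The other more positive members were FDXR (1.31, adjusted p = 0.00089), AEN (1.43, adjusted p = 0.00046), CYFIP2 (2.91, adjusted p = 5.15e-07) and RRAD (6.66, adjusted p = 1.45e-09). The more negative ones were BTG1 (-2.84, adjusted p = 2.46e-06), DDB2 (-1.48, adjusted p = 0.000321), POLH (-1.32, adjusted p = 0.00641), PERP (-3.38, adjusted p = 1.86e-05), KITLG (-3.01, adjusted p = 7.07e-05), EDA2R (-1.54, adjusted p = 0.0399) and TP53I11, for which no p is given for the same reason as above. The call of EDA2R held in 3 of 12 fits that left out a library and was lost with a replicate block (adjusted p = 0.0611). Without U118 resistant replicate 1 the more negative members numbered 14 (26.2% of all genes). MDM2 differed by -0.96 (standard error 0.75, adjusted p = 0.335), with a 95% interval from -2.59 to 0.66.

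Relatives among the members are listed by level per transcript length. MDM2 was above MDM4 in every library, at 5.29 to 45.7 TPM against 0.566 to 3.96 TPM. BTG1 exceeded BTG2 in 11 of 12 libraries, and in U118 resistant replicate 1 BTG2, at 23.8 TPM, was above BTG1, at 18.2 TPM. SESN2 was above SESN1 in all 12 libraries, and CCNG1 above CCNG2. GADD45A exceeded GADD45B in 11 of 12 libraries, with sensitive replicate 1 of U87 the exception, at 18.5 against 20.5 TPM. PLK2 was above PLK3 in all 12 libraries, most narrowly in U87 resistant replicate 2, with 28.4 TPM of PLK2 and 27.7 TPM of PLK3.

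The regulators that act upstream were listed apart from the members, 19 genes of which 16 were tested in each line. In U87 none was called higher and 2 lower, where 7.79% of all genes were called lower. At an unadjusted p under 0.05 with limma, 1 was higher (11.8% of all genes) and 6 lower (36.7%), the latter near the share of all genes. The 2 called lower were CHEK1, the checkpoint kinase, at -1.11 (adjusted p = 0.00809), and TP53BP2, a p53 cofactor, at -1.35 (adjusted p = 0.00223). Under median-ratio scaling CHEK1 was at -0.87 and not called. The call of CHEK1 was also lost without sensitive replicate 2. In U118, 8 were called lower and none higher, where 26.6% of all genes were called lower. The 8 were the kinases ATM, ATR and CHEK1, TP53BP1, USP7, RCHY1, CREBBP and PPP1R13L, with log2 fold changes from -2.18 to -1.12. At an unadjusted p under 0.05 with limma, 11 regulators were lower (44.4% of all genes) and 0 higher (13.7%). CREBBP, a histone acetyltransferase, was at 42.5 to 56.9 TPM in U118 sensitive and 10.5 to 11.2 TPM in U118 resistant libraries, beside 12.4 to 18.8 TPM in U87 sensitive libraries. Under median-ratio scaling 4 of the regulators were called lower (12.9% of all genes), with ATR, RCHY1, TP53BP1 and USP7 lost, and without resistant replicate 1 EP300 was called as well, 9 in all (36.3%).

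Of 19 other p53 targets outside the members, 16 were tested in U87 and 17 in U118. In U87, CDKN1A, the cyclin-dependent kinase inhibitor p21, was at 125, 117 and 117 TPM in sensitive and 804, 642 and 838 TPM in resistant libraries, and GDF15, a stress cytokine, and CD82, a tetraspanin, were also called higher, at 3.0 and 1.86, 3 in all where 3.03% of all genes were called higher. Without sensitive replicate 2 BBC3, FAS and TNFRSF10B were called too, 6 in all (3.48%). BBC3 and TNFRSF10B were also gained under median-ratio scaling (4.79% of all genes) and without mitochondrially encoded genes (3.95%), 5 in all in each. In U118, CDKN1A was at 101, 39.4 and 71.2 against 687, 534 and 453 TPM (3.04, standard error 0.34, adjusted p = 0.000114). GDF15, BBC3, FAS and CD82 were called higher with it, between 1.36 and 7.37, and PMAIP1, APAF1, PTP4A1 and THBS1 lower, between -2.56 and -1.03. These are 5 higher and 4 lower of 17, where 8.64% and 26.6% of all genes were called. The U118 resistant libraries were at 405 to 435 TPM of GDF15, beside 2.35 to 3.37 TPM in U87 sensitive and 27.3 to 31.4 TPM in U87 resistant libraries. Under median-ratio scaling 7 were higher (15.2% of all genes), with NINJ1 and TNFRSF10B gained, and 2 lower (12.9%), with APAF1 and PMAIP1 lost. The call of PMAIP1 held in 1 of 6 fits that left out a library.

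Of the members, FBXO22, BTG1, XPC, TIGAR and PHLDA3 have over 10% of their exon bases under exons of another gene on either strand (GENCODE release 29, GRCh38), 42.6% for TIGAR on its own strand and 30.4% for XPC on the opposite strand, and CCNG1, BTG1, CCNG2, POLH and TRIAP1 have an annotated pseudogene. Whether reads were counted by strand is not given in the sources used here, so values of these genes are less certain.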

How the data were processed

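Libraries of mRNA were made from total RNA, 3 in each of 4 groups, and the paper names a company, Sangon Biotech, for the sequence analyses. The authors deposited TPM per gene, 1 table for each cell line, with 58174 Ensembl identifiers, of which 57392 had a symbol. The submitters' processing notes name FastQC 0.11.2, Trimmomatic 0.36, HISAT2 2.0, bedtools 2.26.0 and the build GRCh38, and the quantification tool and annotation are not given in the sources used here. Groups followed the sample titles. Since TPM keeps no read counts, no interval or detection limit from depth could be given, and the error is the spread between libraries.

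A pseudocount of 1 was added, log2 was taken, and limma 3.58.1 (R 4.3.3, eBayes with trend) was run separately for each line on every gene that reached 1 TPM in 3 or more of its 6 libraries. The difference between lines was an interaction term over the 12 libraries, for genes that reached 1 TPM in 3 of them. Calls needed a Benjamini-Hochberg adjusted p under 0.05 over all genes tested and a change of 1 or more on the log2 scale, on which low genes change less because of the pseudocount. The smallest p of an exact permutation test of 3 against 3 libraries is 0.1, and none was used. The fits were checked on artificial data first.

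The members, their roles and the 2 lists of other pathway genes were chosen with earlier results of these data known, and 1 gene of each of these 2 lists is not reported here. All 35 members are accounted for, those called in a line or in the difference with full values. Some others are given in full as well and were chosen after their values were seen. Alternatives were a pseudocount of 0.1, no filter, genes with a mean of 10 TPM or more, scaling by median ratios, TPM without mitochondrially encoded genes, a replicate block, eBayes without trend, no fold limit, and each library left out. Positions are from GENCODE release 29. Figures were drawn with matplotlib 3.10.9, with pandas 2.3.3 in Python 3.11.15.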

Additional observations from a re-analysis of the deposited data

Results flagged for a closer look

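The members whose resistant effect differed between the lines by the interaction test of limma are given as the effect in U118 minus that in U87, on the log2(TPM + 1) scale. The difference was 6.66 for RRAD, 2.91 for CYFIP2, 1.91 for BTG2, 1.43 for AEN and 1.31 for FDXR. It was -5.41 for TP53I11, which is no fold change since this gene was listed at 0 in all U87 and U118 resistant libraries, -3.38 for PERP, -3.01 for KITLG, -2.84 for BTG1, -1.54 for EDA2R, -1.48 for DDB2 and -1.32 for POLH. For 10 of these 12 genes the U118 resistant mean was nearer to the U87 sensitive than to the U118 sensitive mean, and DDB2 and EDA2R were the exceptions. The same held for 81.9% of all genes called in this difference. The 5 more positive and 7 more negative of 35 members stand beside 12% and 18.5% of all genes, near those shares. TP53I11 is among the 7 and passed the filter only through the U118 sensitive libraries, where it was high. The difference between cell lines and the resistant state cannot be told apart here.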

How the results depend on the processing

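Percentages in parentheses are the share of all genes tested. The members called higher in U87, 5 in all, numbered 3 with a mean of at least 10 TPM (2.3%, fewer genes tested), 12 under median-ratio scaling (4.79%), 9 without mitochondrially encoded genes (3.95%) and 14 with no fold limit (9.43%), where 3 were lower (29.7%); with a library left out they numbered 4 to 7 (2.92% to 3.48%). In U118 the members called lower, 5, were 9 with no fold limit (39.1%) and 4 to 8 with a library left out (21.8% to 36.3%), the 8 without resistant replicate 1, and those called higher ran from 7 to 12 (7.91% to 9.15%). Median log2 fold changes moved in U87 from 0.46 to 0.52 with a pseudocount of 0.1, 0.71 under median-ratio scaling, 0.60 without mitochondrially encoded genes and 0.39 to 0.56 with a library left out. In U118 the median turned from 0.16 to -0.05 without sensitive replicate 3 and -0.20 without resistant replicate 1, and ran from -0.20 to 0.39 with a library left out. The U118 median was 0.69 under median-ratio scaling, 0.35 without mitochondrially encoded genes and 0.04 with no filter. The members more positive in U118 were 5, and 8 under median-ratio scaling (16.5%). The more negative, with TP53I11 counted, were 7, and 6 to 14 with a library left out (15.5% to 26.2%). The cause of these shifts was not tested.

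The sign of members that were not called changed as follows. In U87, FBXO22 was at 0.24 under median-ratio scaling, 0.12 without mitochondrially encoded genes and -0.18 to 0.10 with a library left out, TP53I3 at 0.21, 0.089 and -0.10 to 0.041 in the same settings, and PIDD1 at 0.088 under median-ratio scaling. With a library left out AEN ran from -0.00071 to 0.14 and SPATA18 from -0.10 to 0.20. In U118, median-ratio scaling gave 0.13 for PPM1D, 0.44 for RRM2B and 0.32 for TIGAR, and RRM2B was at 0.12 without mitochondrially encoded genes. With a library left out MDM2 ran from -0.074 to 0.88, SERTAD1 from -0.092 to 0.37, XPC from -0.25 to 0.39, RRM2B from -0.48 to 0.17, TIGAR from -0.50 to 0.05, TRIAP1 from -0.60 to 0.46 and PIDD1 from -0.20 to 0.26. No called member changed sign in these settings. These values were also counted within the lines over all settings except that of no fold limit, which was left out. Of them, 770 kept their direction and side of the threshold, 30 newly passed it, 24 lost it and 31 changed sign.

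Nothing in the labels says that replicate numbers pair the libraries. Correlations of same-numbered deviations were -0.067 to 0.011 in U87, where no library correlated best with its own number. In U118 they were 0.051 to 0.139, and each library correlated best with its own number. Whether the numbers pair libraries in U118 is therefore not settled, and the main fits were unpaired. With a replicate block, 4 members were higher (2.99%) and 0 lower (7.51%) in U87 (RRM2B was lost), 11 higher (8.78%) and 5 lower (27.2%) in U118 (TP53INP1 was gained), and the difference between lines gave 5 (12.1%) and 7 (18.8%), with EDA2R lost and RRM2B gained, at -1.38. TPM gives no depth, so what depth limits could not be assessed.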
